A study of Mus musculus with 32 samples.

Results

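This comparison set non-neuronal nuclei of the colon against those of the small intestine (SI) in mice of the facility labelled Crick. It used 8 of the 32 libraries of the series, 4 from the colon and 4 from the SI, chosen by facility, sort and segment in the column names, and all 51912 genes of the deposited table. All groups were C57BL/6 mice kept specific pathogen free, injected intravenously with AAV9-CaMKII-EGFP-KASH, a virus that puts a green fluorescent protein on the envelope of nuclei in cells where its CaMKII promoter is active. At 5 weeks the longitudinal muscle with the myenteric plexus was peeled off, nuclei were freed and sorted, and the libraries here hold the EGFP-negative, non-neuronal nuclei. Age and sex are not given in the labels. Since the negative gate holds what the virus did not label, neurons it missed can be in it. Nothing in the labels says that the 4 libraries of a group came from separate mice, so p-values measure the spread between libraries, which may be technical.

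The peeled layer holds smooth muscle, interstitial cells of Cajal (the pacemaker cells), fibroblasts, glia, resident macrophages, blood and lymphatic vessels, and the mesothelium that covers the outer face of the gut. Lymphatic endothelium is specified by the transcription factor Prox1 and grows under the receptor encoded by Flt4. Hox genes are transcription factors that lie in 4 clusters and are switched on along the body axis in the order of their place in the cluster, so that the high-numbered groups mark the hind part of the body, the hindgut included.

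The 8 libraries held 4310395 to 8350887 expected counts. Pan-neuronal markers summed to 295 to 502 CPM (the depth-normalised read count used throughout) in the colon non-neuronal libraries and to 92.6 to 205 CPM in the SI ones, against 2924 to 4390 CPM in the Crick neuronal libraries, all on the scale of the 16 Crick libraries. Smooth muscle markers ran the other way, from 10814 to 38778 CPM in the non-neuronal and from 1074 to 2930 CPM in the neuronal libraries. Markers of interstitial cells of Cajal did not follow the gates. In the SI they summed to 471 to 1134 CPM in the non-neuronal and 1380 to 2425 CPM in the neuronal libraries. In the colon the sums were 395 to 725 and 411 to 539 CPM in the same order. A few libraries stood apart. Colon library 4 and SI library 4 were the deepest, yet had 27375 and 27402 genes above 0, while the other 6 libraries had 32373 to 35260. They were also the libraries with Xist, the RNA of the inactive X chromosome, at 6093 and 9221 CPM, against 5.14 to 8.02 CPM in the other 6 libraries, so that each segment had 1 such library of 4. In SI library 2, 23.58% of counts were mitochondrial (95% Wilson interval 23.54% to 23.61%, counting error only), against 4.75% to 10.19% in the other 7 libraries. In colon library 3, class II antigen presentation genes summed to 2799 CPM and B cell genes to 1556 CPM, against at most 433 and 215 CPM elsewhere.

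Genes were tested with edgeR's quasi-likelihood test and Benjamini-Hochberg adjustment over all genes tested, with a threshold of 0.05. The main fit took the 16 non-neuronal libraries of both facilities, which then share 1 estimate of spread, and tested 19164 genes. It called 49 genes, or 0.256% of those tested: 19 higher in the colon (0.0991%) and 30 lower (0.157%). Without adjustment, 1145 genes had a p under 0.05. The same test on the 8 Crick libraries alone, here the Crick-only fit, called 906 of 18618 genes (4.87%), 543 higher (2.92%) and 363 lower (1.95%). The 2 fits gave nearly equal differences and unequal spreads: the common biological coefficient of variation was 0.814 in the 16 libraries, 0.456 in the 8 Crick ones and 0.946 in the 8 Bern ones. The Crick-only fit tested 48 of the 49 genes and called all 48 in the same direction. With SI library 2 and colon library 3 left out, the counts were 11 in the main fit and 195 in the Crick-only fit. With both libraries numbered 4 left out they were 16 and 945. Under total count scaling it called 36, of which 19 were higher (52.8%, against 38.8% in the main fit). Over all genes tested the median log2 difference (colon minus SI, also below) was 0.02. The CPM of colon and SI did not overlap for 12.9% of genes, with the colon above for 6.71% and the SI above for 6.21%. In what follows a gene "rose" or "fell" only by a test that is named.

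Hind Hox genes were among those that rose in the colon. Of the 16 genes of Hox paralogue groups 9 to 13, 11 had enough counts to be tested. The main fit called 4 of them higher in the colon, Hoxa10, Hoxa13, Hoxd10 and Hoxd13, and the Crick-only fit called 8 of the 9 it tested. The median difference over the 11 was 5.74, beside 0.02 over all genes. The 4 genes lie in the HoxA cluster on chromosome 6 (Hoxa10 at chr6:52231197-52240854, Hoxa13 at chr6:52257694-52260880) and the HoxD cluster on chromosome 2 (Hoxd13 at chr2:74668310-74671599, Hoxd10 at chr2:74691924-74695105; GRCm38). The 250 bases before a RefSeq start of each, from RefSeq on GRCm38.p6, are shown 5′ to 3′ since these are the promoters of the 4 called genes. Capitals mark matches, on either strand, to TTTATNG (bound by CDX factors), TATAAA (the TATA box), CCAAT and GGGCGG (the GC box).

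Hoxa10, chr6:52240855-52241104, minus strand: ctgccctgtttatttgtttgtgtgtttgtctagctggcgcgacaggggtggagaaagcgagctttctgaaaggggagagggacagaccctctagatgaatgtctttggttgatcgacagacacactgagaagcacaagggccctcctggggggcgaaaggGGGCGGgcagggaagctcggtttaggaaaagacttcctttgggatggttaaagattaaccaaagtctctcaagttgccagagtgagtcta
Hoxa13, chr6:52260881-52261130, minus strand: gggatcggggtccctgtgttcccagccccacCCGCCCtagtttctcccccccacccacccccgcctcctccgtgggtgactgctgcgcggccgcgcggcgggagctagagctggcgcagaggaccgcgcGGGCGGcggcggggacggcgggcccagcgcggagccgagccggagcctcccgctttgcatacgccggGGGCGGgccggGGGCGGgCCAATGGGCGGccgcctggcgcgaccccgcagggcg
Hoxd10, chr2:74691641-74691890, plus strand: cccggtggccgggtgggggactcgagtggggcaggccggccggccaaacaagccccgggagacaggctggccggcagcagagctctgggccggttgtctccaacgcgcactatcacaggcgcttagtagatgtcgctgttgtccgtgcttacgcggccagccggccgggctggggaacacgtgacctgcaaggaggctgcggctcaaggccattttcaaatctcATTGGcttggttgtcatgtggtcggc
Hoxd13, chr2:74667975-74668224, plus strand: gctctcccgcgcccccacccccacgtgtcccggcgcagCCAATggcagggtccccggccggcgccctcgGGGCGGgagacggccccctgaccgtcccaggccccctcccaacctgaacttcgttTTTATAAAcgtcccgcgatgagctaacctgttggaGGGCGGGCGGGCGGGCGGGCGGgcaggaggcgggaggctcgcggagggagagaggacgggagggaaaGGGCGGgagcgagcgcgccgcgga

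These 4 windows held 7, 35, 20 and 31 CpG pairs, in the order printed, beside a median of 6 over 32851 RefSeq promoter windows of the same length. GC boxes were found in 3 of the 4, with 7 matches before Hoxd13 (some overlap one another) and 5 before Hoxa13. A GC box is in 32.7% of all windows and CCAAT in 33.8%. TATAAA, present in 12.4% of all windows, matched in Hoxd13 only among the 4. TTTATNG, in 9.81% of all windows, matched in none of the 4, which says only that these letters are not in these windows.

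Hoxd13, the last gene of its cluster, was at 71.6, 16.1, 23.9 and 28.7 CPM in colon libraries 1 to 4. In SI libraries 1 to 4 it was at 0.765, 0, 0 and 0.129 CPM. Every colon library was thus far above every SI library, and colon library 1 was the highest. Hoxd13 rose by 7.10 ± 1.36 (log2, SE, n = 4 and 4; edgeR adjusted p = 0.0199). Hoxd10 was at 16.6, 26.3, 11.5 and 11 CPM in the colon, and in the SI at 0.257 CPM in library 2 and 0 in the other 3. It rose by 7.72 ± 1.36 (edgeR adjusted p = 0.00823). Hoxa10 was at 13.4, 12.7, 9.65 and 25 CPM in the colon and was seen in SI library 3 only, at 0.411 CPM (edgeR adjusted p = 0.0292). Hoxa13 was at 13.4, 6.35, 6.23 and 11.9 CPM in the colon and was seen in SI library 2 only, at 0.514 CPM (edgeR adjusted p = 0.0304). The size of these folds rests on 1 to 5 counts in the whole SI group: the ratio of CPM was 342 for Hoxd10 (1 SI count; 95% counting interval 61 to 13500), 182 for Hoxa10 (2 counts; 50.1 to 1510) and 106 for Hoxa13 (2 counts; 28.9 to 877).

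A further 4 hind Hox genes passed the Crick-only fit but not the main fit. Hoxa9 was at 26.3 to 39.4 CPM in the colon and 0.517 to 4.63 CPM in the SI (log2 difference 3.69, edgeR adjusted p = 0.00269 in the Crick-only and 0.212 in the main fit). Hoxd9 was at 5.03 to 20.9 against 0.257 to 1.03 CPM (adjusted p = 0.00219 and 0.0839 by edgeR in the same order). Hoxd11 was at 23.7 to 59.8 CPM in the colon and at 0.191 to 0.771 CPM in SI libraries 1 to 3, but at 7.63 CPM in SI library 4 (adjusted p = 0.0199 and 0.109). Hoxd12 was at 2.29 to 4.05 CPM in the colon and at 0 in all 4 SI libraries, at least 22.7-fold higher by the floor of 3 counts over the SI group (adjusted p = 0.0104 and 0.159). The remaining tested members overlapped between the segments. Hoxb9 ran from 3.71 to 30.0 CPM in the colon and from 0 to 4.59 CPM in the SI. Hoxb13 was at 0 CPM in colon library 2, and at 7.24 to 11.1 CPM in the other 3. Hoxa11 ran from 1.41 to 5.54 CPM in the colon and from 0 to 2.06 CPM in the SI. Of the HoxC members none passed the filter on low counts: Hoxc9 had 22 counts in the colon group and 20 in the SI group, and Hoxc10 had 67 and 9. Evx2, a homeobox gene next to Hoxd13, was at 2.61 to 7.25 CPM in the colon and at most 0.514 CPM in the SI, and rose in the Crick-only fit (log2 difference 4.57, edgeR adjusted p = 0.0216; main fit 0.304).

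Hox genes of groups 1 to 8 gave another picture. Of the 22 examined, 20 were tested, none was called in the main fit, and the median difference was -0.47. In the Crick-only fit 4 fell, all of them in the HoxC cluster, and Hoxa7 rose. Hoxc6 was at 3.41, 3.18, 4.83 and 2.35 CPM in the colon and at 58.2, 113, 42.4 and 35.2 CPM in the SI. Its groups were far apart (log2 difference -4.17 ± 0.94, edgeR adjusted p = 0.0631 in the main fit and 0.000804 in the Crick-only fit). Hoxc4 ran from 2.77 to 7.04 CPM in the colon against 25.6 to 44.0 CPM in the SI (Crick-only edgeR adjusted p = 0.00251). Hoxc5 ran from 1.34 to 4.77 against 12.8 to 34.2 CPM and Hoxc8 from 1.01 to 2.65 against 4.27 to 17.7 CPM (Crick-only edgeR adjusted p = 0.0122 and 0.0269). Hoxa7 was at 12.8 to 17.6 CPM in the colon and 5.35 to 6.43 CPM in the SI (Crick-only edgeR adjusted p = 0.0325). Hoxa5, Hoxb3 and Hoxb5 overlapped between segments, with log2 differences of 0.20, -0.87 and -0.44. The other members examined, Hoxa2, Hoxa3, Hoxa4, Hoxa6, Hoxb2, Hoxb4, Hoxb6, Hoxb7, Hoxb8, Hoxd3, Hoxd4 and Hoxd8, had log2 differences from -1.30 (Hoxb2) to 1.64 (Hoxd8), and none passed either fit. In the neuronal nuclei of the same facility the 4 HoxC genes also fell in the colon, Hoxc6 by 7.64 (log2; edgeR adjusted p = 1.27e-05). None of the hind Hox genes was called there, which does not by itself show that the gates differ. Tested directly, the difference between the gates passed for Hoxa10 and Hoxd10 (edgeR adjusted p = 0.0101 and 0.0497). It did not pass for Hoxa13 or Hoxd13 (edgeR adjusted p = 0.11 and 0.149).

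**Figure D1:**
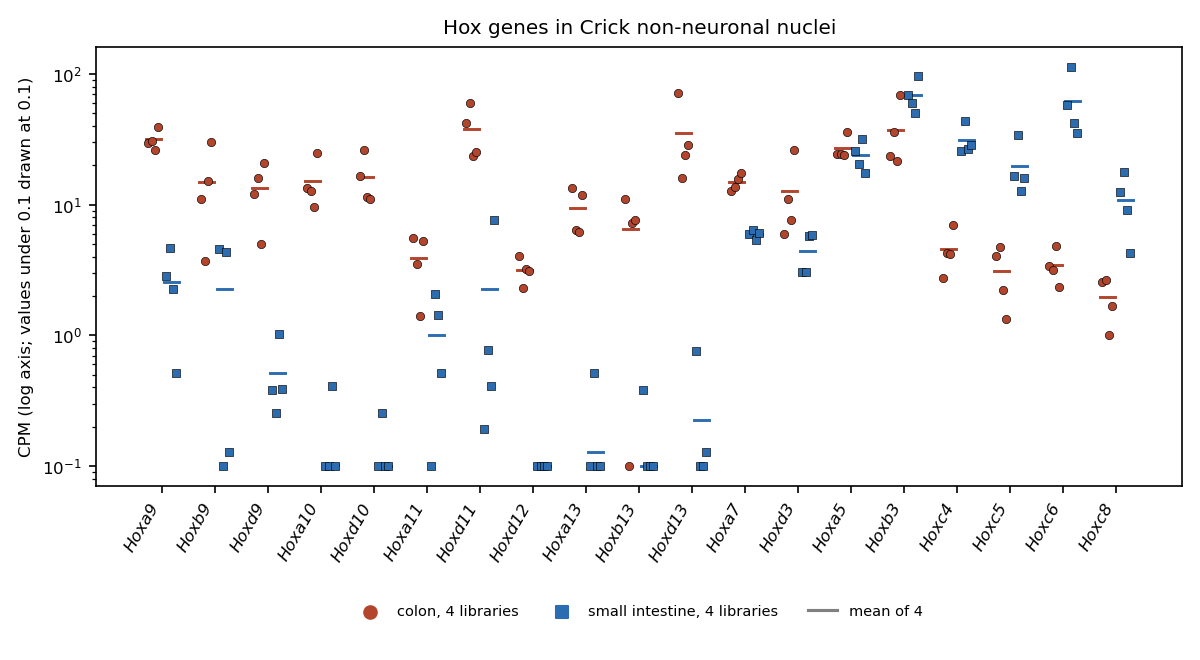
CPM of 19 Hox genes on a log axis in the 4 colon (red circles) and 4 SI (blue squares) Crick non-neuronal libraries, with short lines at the group means and values under 0.1 drawn at 0.1. Groups 9 to 13 stand at the left with the colon high, and Hoxc4, Hoxc5, Hoxc6 and Hoxc8 at the right with the SI high.

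Lymphatic endothelial genes rose together in the colon. The main fit called 5 of the 6 listed genes higher, Ccl21a, Lyve1, Mmrn1, Flt4 and Prox1, and so did the Crick-only fit, with a median difference of 4.54. Summed over the list, the colon libraries held 1516, 1570, 678 and 496 CPM and the SI libraries 37.7, 48.1, 69.3 and 57.7 CPM. Colon libraries 1 and 2 were the highest, and all 4 lay above the SI. In bulk nuclei, fewer cells of a type and less RNA per cell cannot be told apart, here and for every marker list below.

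Prox1 (chr1:190118035-190170714), the transcription factor that sets lymphatic identity, was at 154, 174, 93.1 and 146 CPM in the colon and at 4.78, 12.6, 17.1 and 14.9 CPM in the SI (log2 difference 3.52 ± 0.75, edgeR adjusted p = 0.0448). Flt4 (chr11:49609263-49652739), the receptor for the lymphatic growth factors VEGF-C and VEGF-D, was at 184, 226, 137 and 87.5 CPM against 4.4, 9.77, 8.85 and 5.43 CPM. It rose by 4.48 ± 0.61 (edgeR adjusted p = 0.000602). Lyve1 (chr7:110850607-110863239), a hyaluronan receptor of lymphatic vessels, was at 415, 396, 169 and 88.6 CPM against 5.17, 11.3, 9.67 and 11.2 CPM. It rose by 4.83 ± 0.72 (edgeR adjusted p = 0.00148). Ccl21a (chr4:42772860-42773993), a chemokine that draws dendritic and T cells to lymphatics, was at 249, 296, 95.3 and 65.6 CPM against 2.87, 1.54, 9.67 and 4.01 CPM (5.27 ± 0.63, edgeR adjusted p = 0.000304). Ccl21a has near-identical gene copies in the mouse, so its share of their reads is uncertain. Mmrn1 (chr6:60924976-60989378), which encodes the secreted protein multimerin, was at 499, 464, 178 and 93.9 CPM against 11.1, 9.25, 14.6 and 15.9 CPM (4.59 ± 0.80, edgeR adjusted p = 0.00775). In each of the 4 genes other than Prox1, colon libraries 1 and 2 stood above colon libraries 3 and 4.

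The sixth member, Pdpn, which fibroblasts also express, ran from 5.63 to 15.2 CPM in the colon and from 3.60 to 9.46 CPM in the SI, overlapped, and passed neither fit. Reln (chr5:21884454-22344702), a secreted matrix protein and no member of the list, was at 354, 412, 182 and 116 CPM in the colon against 11.1, 15.4, 24.3 and 11.2 CPM in the SI. It rose by 4.10 ± 0.71 (edgeR adjusted p = 0.00694). The 250 bases before a RefSeq start of Prox1 and Flt4 are given for comparison with those of the Hox genes, with the same capitals. The RefSeq start of Flt4 used here lies 416 bases downstream of the GENCODE start, so its window lies inside the gene as GENCODE places it.

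Prox1, chr1:190170828-190171077, minus strand: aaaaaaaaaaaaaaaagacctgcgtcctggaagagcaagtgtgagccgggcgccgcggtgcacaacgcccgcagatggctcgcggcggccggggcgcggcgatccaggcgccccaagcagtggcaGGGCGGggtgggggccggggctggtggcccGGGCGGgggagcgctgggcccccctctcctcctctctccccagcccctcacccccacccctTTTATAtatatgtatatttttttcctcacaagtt
Flt4, chr11:49609429-49609678, plus strand: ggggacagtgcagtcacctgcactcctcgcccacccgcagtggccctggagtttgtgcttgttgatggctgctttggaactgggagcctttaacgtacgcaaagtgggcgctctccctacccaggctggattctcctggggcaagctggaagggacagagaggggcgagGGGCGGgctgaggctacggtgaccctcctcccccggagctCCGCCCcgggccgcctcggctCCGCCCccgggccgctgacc

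The Prox1 window held 20 CpG pairs, 2 GC boxes and 1 TATAAA match, and the Flt4 window 16 CpG pairs and 3 GC boxes. Neither matched TTTATNG.

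Some blood endothelial genes rose in the Crick-only fit. None of the 11 listed genes was called in the main fit. In the Crick-only fit 5 rose, Pecam1, Kdr, Tie1, Emcn and Cldn5, and the median difference over the 11 was 1.97. That fit called 2.92% of all genes higher. Tie1, an endothelial receptor kinase, was at 19.0, 31.4, 20.1 and 20 CPM in the colon and at 3.64, 7.20, 4.53 and 2.59 CPM in the SI (log2 difference 2.37, Crick-only edgeR adjusted p = 0.00735; main fit 0.671). Cldn5, a tight-junction protein of vessels, was at 7.27 to 21 CPM against 0 to 1.03 CPM (Crick-only edgeR adjusted p = 0.00554). Kdr, a receptor for VEGF, was at 25.6 to 74.7 against 8.61 to 17.2 CPM, and Pecam1, a junction protein that lymphatic endothelium also makes, at 24.9 to 95.3 against 3.88 to 20.8 CPM. The summed list was at 188 to 380 CPM in the colon and 61.4 to 149 CPM in the SI. Whether the lymphatic and blood vessel lists differ in their change was not tested.

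**Figure D2:**
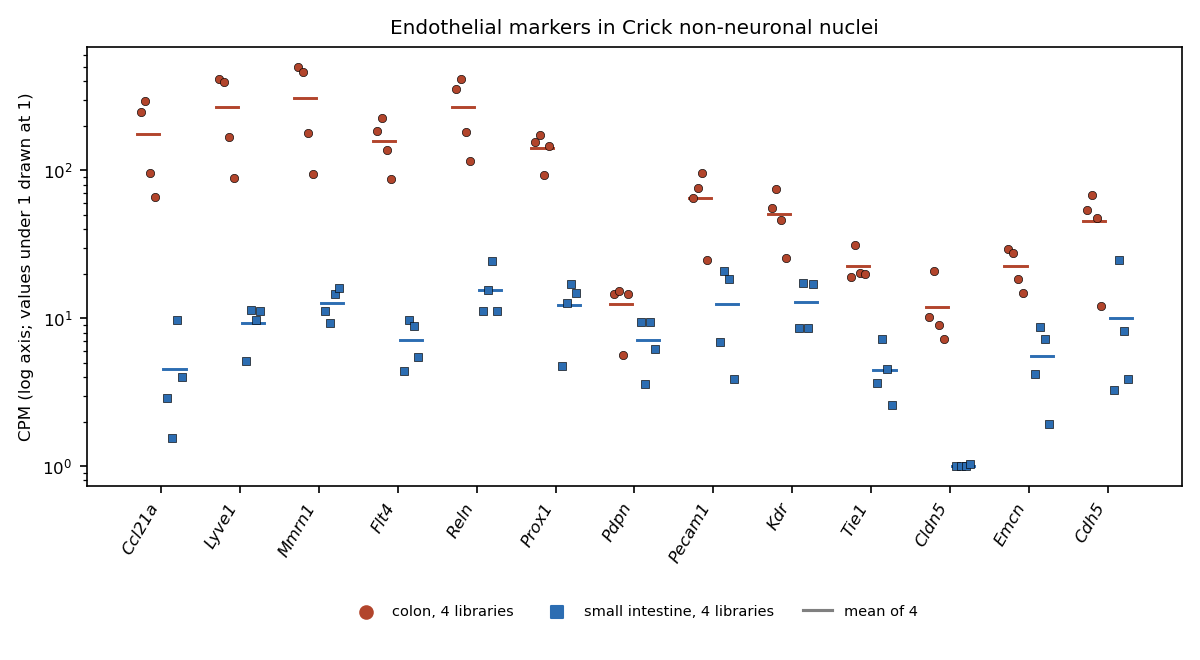
CPM on a log axis of the 6 lymphatic markers with Reln (Ccl21a to Pdpn) and of 6 blood endothelial markers (Pecam1 to Cdh5) in each Crick non-neuronal library, colon as red circles and SI as blue squares, with lines at the group means and values under 1 drawn at 1. The groups are apart for the first 6 genes and overlap for Pdpn and Cdh5.

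Most mesothelial genes were lower in the colon. Muc16 (chr9:18495455-18674530), a large membrane mucin of the serosal surface, was at 310, 341, 71.8 and 40.7 CPM in the colon and at 1594, 1134, 1702 and 1349 CPM in the SI. It fell by 2.92 ± 0.50 on the log2 scale (edgeR adjusted p = 0.00694) and was the only one of 8 listed genes called in the main fit. In the Crick-only fit 7 of the 8 fell, beside 1.95% of all genes, and the median difference over the 8 was -2.59. Msln, the mesothelial surface protein mesothelin, was at 8.31, 12.9, 4.83 and 1.34 CPM in the colon against 43.8, 30.1, 49.0 and 55.1 CPM in the SI (Crick-only edgeR adjusted p = 0.0149; main fit 0.341). Wt1, a transcription factor of the mesothelium, was at 3.42 to 21 against 39.3 to 59.6 CPM (Crick-only edgeR adjusted p = 0.0279). Upk1b and Upk3b, membrane proteins of the uroplakin family, were at 5.23 to 13.6 against 36.2 to 51.7 CPM and at 4.22 to 15.1 against 37.3 to 103 CPM. Lrrn4 ran from 4.14 to 16.4 against 27.2 to 89.1 CPM and Bnc1 from 2.35 to 18 against 38.6 to 44.5 CPM. Gpm6a, which neurons also express, overlapped between the segments and passed neither fit. Colon libraries 1 and 2, which were the highest for lymphatic genes, were also the highest of the colon for the summed mesothelial list, at 416 and 455 CPM against 102 and 76.1 CPM in colon libraries 3 and 4. All 4 lay under the SI libraries, at 1366 to 2057 CPM.

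Apart from AY036118 and the predicted gene Gm35755, the largest called falls in the colon were those of Sctr, Hcn4, Grm8, Kcnip2 and Dgkb. Sctr (chr1:120006894-120063536), the receptor for the gut hormone secretin, was at 0.852, 0, 0.201 and 1.23 CPM in the colon and at 32.3, 31.4, 30.9 and 40.9 CPM in the SI. It fell by 5.77 ± 0.88 on the log2 scale (edgeR adjusted p = 0.00171). Hcn4 (chr9:58823412-58863175), a channel that carries pacemaker current in the heart, was at 2.98, 2.12, 1.21 and 1.57 CPM against 39, 60.4, 44.6 and 63.3 CPM (edgeR adjusted p = 0.00143). Kcnip2 (chr19:45791839-45816061), a subunit of Kv4 potassium channels, was at 1.61 to 2.80 CPM against 34.1 to 64.3 CPM (log2 difference -4.4 ± 0.87, edgeR adjusted p = 0.0244). In all 3 genes every SI library lay far above every colon library, and the rule for named genes took only groups that do not overlap. Grm8 (chr6:27275119-28135178), a metabotropic glutamate receptor, was at 1.61 to 4.70 CPM in the colon and 55.3 to 106 CPM in the SI (-4.55 ± 0.81, edgeR adjusted p = 0.0095). Dgkb (chr12:37817726-38634239), a diacylglycerol kinase, was at 54.8, 75.4, 25.7 and 33.2 CPM against 941, 1367, 721 and 657 CPM. It had the smallest adjusted p of the comparison (fall of 4.28 ± 0.45 on the log2 scale, edgeR adjusted p = 3.7e-05).

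The next falls by the rule for named genes were of mixed function. Frem1 (chr4:82897920-83052339), a basement membrane protein, was at 2.57 to 19.8 CPM in the colon and 146 to 253 CPM in the SI (edgeR adjusted p = 0.00143). Ltbp2 (chr12:84783212-84876532), a microfibril protein of the latent TGF-beta binding family, was at 1.68 to 6.39 against 32.7 to 82.5 CPM (edgeR adjusted p = 0.0292). Cemip (chr7:83932857-84086502), which takes part in the breakdown of hyaluronan, was at 10.0, 19.8, 8.85 and 3.24 CPM against 108, 123, 127 and 102 CPM (edgeR adjusted p = 0.00143). Cubn (chr2:13276338-13491813), an endocytic receptor of absorptive epithelia, was at 5.48 to 30.5 against 56.0 to 214 CPM (edgeR adjusted p = 0.0244). The rule for named genes closed on Rbm24 (chr13:46418434-46431095), an RNA-binding splicing factor of muscle, at 4.83 to 13.6 against 57.8 to 88.7 CPM (edgeR adjusted p = 0.0248), and Tm6sf1 (chr7:81859001-81884434), at 25 to 33.9 against 170 to 211 CPM (edgeR adjusted p = 0.00694). In each of these 6 genes the groups did not overlap, which the rule for named genes required.

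**Figure D3:**
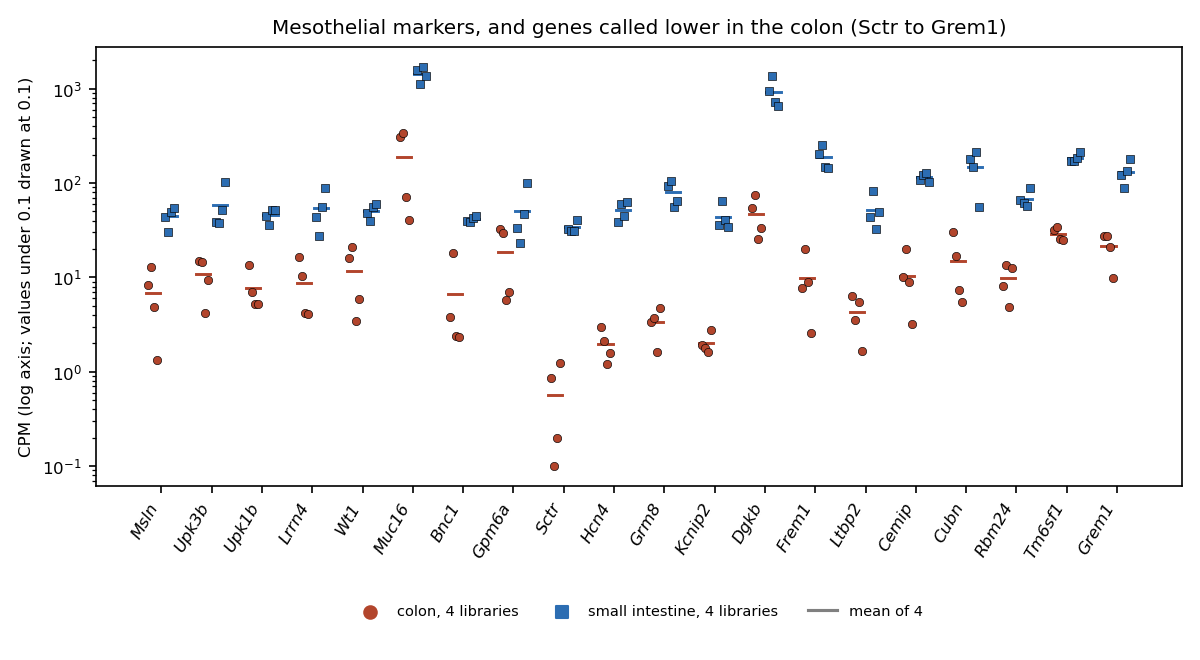
CPM on a log axis of the 8 mesothelial markers (Msln to Gpm6a) and of 12 genes called lower in the colon (Sctr to Grem1), colon as red circles and SI as blue squares, with lines at the group means and values under 0.1 drawn at 0.1. SI points lie above colon points throughout, except for Gpm6a.

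Gfpt1 and Serinc3 rose by less. Gfpt1 (chr6:87042846-87092197), the rate-limiting enzyme of hexosamine synthesis, was at 172 to 282 CPM in the colon and 30.3 to 75.5 CPM in the SI (2.16 ± 0.46, edgeR adjusted p = 0.045). Serinc3 (chr2:163623272-163645131) was at 197 to 362 against 74.0 to 125 CPM (1.42 ± 0.30, edgeR adjusted p = 0.0446). Of the 12 called genes with names that lie beyond the rule's first 12 falls, those described here were picked after their values were seen. Itprid2, Cped1 and Adamtsl3, also lower in the colon, were passed over, although their calls held with any 1 library left out. Grem1, a secreted BMP antagonist, was at 9.84 to 27.7 against 89.2 to 178 CPM, and Nkd2, an inhibitor of Wnt signalling, at 43.6 to 62.6 against 183 to 289 CPM. Abcc9, the sulfonylurea receptor subunit of a potassium channel in pericytes and smooth muscle, fell by 1.48 ± 0.28 on the log2 scale (edgeR adjusted p = 0.0198), and Npnt, a matrix ligand of integrins, fell by 2.21 ± 0.47 (edgeR adjusted p = 0.0448). Scn7a, a sodium channel, was at 193 to 258 CPM in the colon and 531 to 1015 CPM in the SI.

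Predicted genes made up 11 of the 49 calls, and 10 of these 11 lie inside a protein-coding gene. Gm43319, Gm10048, Gm42769 and Gm42770, all higher in the colon, lie within Kcnip4 on chromosome 5 on the same strand. Kcnip4, a potassium channel subunit of neurons, was itself at 14.1 to 30.9 CPM in the colon and 2.06 to 8.04 CPM in the SI (edgeR adjusted p = 0.606 in the main fit and 0.0207 in the Crick-only fit). Gm48713, Gm35755 and 4930428E07Rik, all lower, lie within Dgkb. Gm48885 lies within Gmds, Gm37437 within Cacnb2 and Gm11946 within Smtn. The library kit is not described as marking strand, so reads of these and of their host genes cannot be told apart. AY036118, the only gene called whose groups overlap, was at 3195 CPM in SI library 3 and at 0 in the other SI libraries, so this call rests on 1 library. Without it the difference was 1.37 with an edgeR adjusted p of 1.

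How far the calls lean on single libraries differed between genes. Of the 49, 17 stayed called whichever of the 8 libraries was left out, among them Ccl21a, Flt4, Lyve1, Dgkb, Sctr, Hcn4, Frem1, Cemip, Muc16 and Muc2. Reln lost its call without SI library 1 (edgeR adjusted p = 0.0529) and Tm6sf1 without colon library 3 (edgeR adjusted p = 0.0549). Grm8 lost it without colon library 1 or colon library 3, Hoxd10 without SI library 1 or SI library 3, and Mmrn1 without SI library 1 or SI library 2, with edgeR adjusted p-values up to 0.0713, 0.073 and 0.0574. Grem1 lost it in 2 of the 8 fits, Hoxd13 in 4 and Abcc9 in 5. Cubn and Scn7a lost it in 6, and Hoxa13, Kcnip2, Serinc3 and Npnt in 7. Hoxa10, Prox1, Ltbp2, Rbm24, Gfpt1 and Nkd2 lost it in all 8, with edgeR adjusted p-values between 0.0503 and 0.227. In the Crick-only fit the adjusted p of these 6 genes lay between 0.000804 (Prox1) and 0.00245 (Gfpt1). Smoc2, Ccdc187, 4930428E07Rik and Gm48885 also lost the call in all 8 fits, with edgeR adjusted p-values up to 0.266 (Smoc2).

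Among signalling genes of the mesenchyme a minority of each list passed the Crick-only fit. For these lists and those of the next paragraph, the shares of all genes called by that fit were 4.87%, with 1.95% lower and 2.92% higher. Of 12 tested Hedgehog genes none was called in the main fit, and 5 fell in the Crick-only fit, with a median difference of -0.82 over the 12. These were the receptor Ptch1, the co-receptor Cdon and the transcription factors Gli1, Gli2 and Gli3. Gli1 was at 7.03, 7.59, 3.62 and 5.03 CPM in the colon and 18.9, 35.0, 16 and 28.8 CPM in the SI (log2 difference -2.06, Crick-only edgeR adjusted p = 0.0122; main fit 0.946). Ptch1 was at 71.4 to 73.3 against 110 to 160 CPM and Cdon at 102 to 178 against 308 to 405 CPM. Of 26 listed Wnt genes tested in the Crick-only fit 5 fell, and none of 27 tested in the main fit was called. Nkd2, which the main fit called, is not on this list. The 5 were the ligand Wnt5a, the R-spondins Rspo1 and Rspo3, which amplify Wnt signals, the inhibitor Nkd1 and the receptor Ror1. Rspo1 was at 12.1, 14.3, 2.61 and 4.03 CPM against 51.3, 44.0, 63.4 and 65.0 CPM (edgeR adjusted p = 0.00915 Crick-only and 0.066 main).

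Among 27 tested BMP genes the main fit called Grem1 alone, and the Crick-only fit 3 lower (Grem1, Chrdl1 and Smad9) and 2 higher (Chrdl2 and Bmp3). Chrdl1 was at 5.93 to 17.8 CPM in the colon against 25.4 to 73.2 CPM in the SI, and Chrdl2 at 10.6 to 23.3 against 0.776 to 3.86 CPM (Crick-only edgeR adjusted p = 0.0267 and 0.0117). Of 33 regional transcription factors tested in the Crick-only fit Osr1, Gata5, Hand1 and Meis2 fell and Evx2 rose, and none of 34 was called in the main fit. Osr1, a factor of the lateral mesoderm, was at 6.63 to 10.9 CPM against 35.4 to 47.6 CPM (edgeR adjusted p = 0.00148 Crick-only and 0.132 main). Gata5, a factor of the foregut and midgut, was at 0.530 to 1.49 against 8.99 to 17.3 CPM. Col14a1, Col6a1, Lama5, Npnt, Col4a3 and Col4a4 were the 6 of 39 listed collagen and matrix genes that fell in the Crick-only fit, and none rose. Of this list the main fit called Npnt alone. The matrix genes Frem1 and Ltbp2, which the main fit called lower, are not on it.

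The muscle and pacemaker lists held some calls in the Crick-only fit, which called 4.87% of all genes it tested. None of 18 contractile genes was called in the main fit (median -0.50), and in the Crick-only fit Tagln rose while Myocd, the coactivator of the smooth muscle programme, and Ldb3 fell. Acta2, smooth muscle actin, was at 351 to 658 CPM in the colon and 437 to 730 CPM in the SI (log2 difference -0.12 ± 0.30). Myh11, smooth muscle myosin, was at 2623 to 4079 CPM in the colon and 2082 to 12936 CPM in the SI, where SI library 2 was the highest. Of 32 tested genes of muscle receptors and relaxation the Crick-only fit called Prkg1 and Gucy1b1, the kinase and a cyclase subunit of the nitric oxide pathway, lower and P2ry1 and Htr4, receptors for purines and serotonin, higher. Prkg1 was at 30.6 to 88.8 against 125 to 210 CPM (Crick-only edgeR adjusted p = 0.0171; main fit 0.397). Of 6 markers of interstitial cells of Cajal, Kit was at 98.5, 159, 174 and 179 CPM in the colon and 70.0, 47.0, 85.8 and 271 CPM in the SI and Ano1 at 97.4 to 176 against 135 to 311 CPM, with overlap in both. Gpr20 was the 1 called in the Crick-only fit, lower at 6.39 to 13.9 against 21.4 to 120 CPM. SI library 4 was the highest of the SI for Kit, Ano1, Etv1 and Gpr20. None of 9 glial genes was called in either fit.

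Some markers of cells outside the muscle layer differed between the segments too. Muc2, the gel-forming mucin of goblet cells, was at 1789, 2994, 6114 and 7947 CPM in the colon and at 402, 315, 594 and 82.9 CPM in the SI (log2 difference 3.76 ± 0.63, edgeR adjusted p = 0.00641). Of 8 tested goblet genes Muc2 was the 1 called in the main fit, and Agr2, Spdef and Clca1 were added in the Crick-only fit. Sst, the hormone somatostatin, which both enteroendocrine cells and enteric neurons make, was at 64.8, 45.9, 30.6 and 50.2 CPM in the colon against 4.21, 2.06, 6.79 and 5.17 CPM in the SI (3.38 ± 0.63, edgeR adjusted p = 0.0165; lost without colon library 1 or without SI library 1, 2 or 3, up to 0.0981). Enterocyte genes ran the other way: 8 of 14 fell in the Crick-only fit, such as Apoa1 and Sis, and none of 15 in the main fit. The Crick-only fit called 1.95% of all genes lower. SI libraries 1 to 4 held 765, 1250, 2209 and 223 CPM of the enterocyte list, and colon libraries 340, 84.2, 52.1 and 102 CPM. Epithelium is not part of the peeled layer, and its part in the other results was not tested. The summed goblet list was highest in colon libraries 3 and 4, whereas the lymphatic list was highest in colon libraries 1 and 2.

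Some neuronal genes were higher in the colon non-neuronal libraries. None of 16 was called in the main fit, 9 were not separated between the segments, and 6 rose in the Crick-only fit: Nos1, Chat, Snap25, Vip, Penk and Uchl1. Over all genes, the Crick-only fit called 2.92% higher in the colon. The segments were separated for 12.9% of all genes, with the colon above for 6.71%. Nos1, the nitric oxide synthase of inhibitory motor neurons, was at 79.3, 91.1, 102 and 202 CPM against 9.95, 4.63, 14.2 and 23.5 CPM (log2 difference 3.19, Crick-only edgeR adjusted p = 0.00402; main fit 0.195). In neuronal nuclei of the same facility Nos1 did not pass (difference 0.19, edgeR adjusted p = 0.86). Chat, the enzyme of acetylcholine synthesis, was at 7.83 to 9.18 against 1.03 to 2.07 CPM. The part of neuronal RNA in the results for Kcnip4 and Sst was not tested. The class II antigen presentation list summed to 385 to 2799 CPM in the colon against 100 to 220 CPM in the SI, with none of 7 genes called in the main fit and H2-Aa and H2-DMa called higher in the Crick-only fit (edgeR adjusted p = 0.0321 and 0.0298) and colon library 3 the highest for both.

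**Figure D4:**
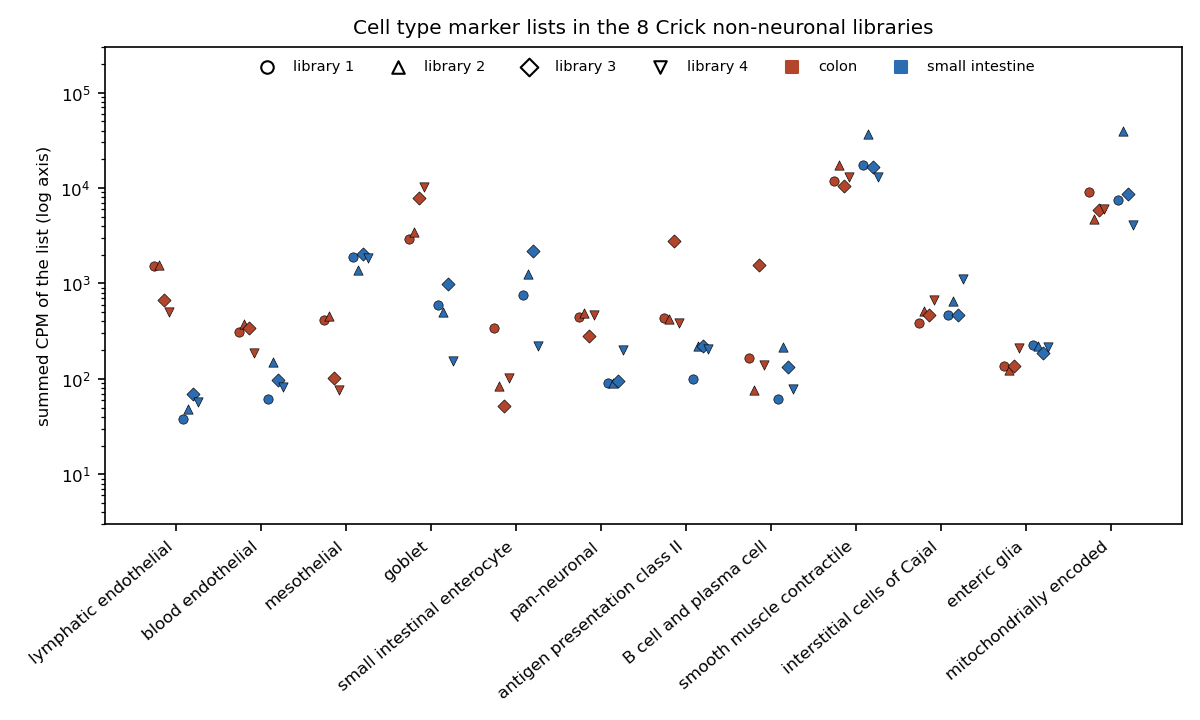
Summed CPM of 12 marker lists on a log axis in the 8 Crick non-neuronal libraries, colon in red and SI in blue, with 1 symbol shape for each library number. Lymphatic, blood endothelial, goblet, pan-neuronal and class II antigen presentation sums were higher in every colon library. The mesothelial sum was higher in every SI library, and SI library 2 stood out in the mitochondrial sum.

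The mice of the second facility, Bern, gave a second set of 4 and 4 libraries of the same 2 segments and sort. In the same model 1939 genes (10.1%) were called there, 1247 higher (6.51%) and 692 lower (3.61%). Of the 49 genes called in Crick, 48 had the same sign in Bern and 44 were called in the same direction, that is 89.8% of the Crick calls and 2.27% of the Bern calls. The choice of the 49 is not wholly free of the Bern libraries, since these enter the estimate of spread. The Crick-only fit does not use them: of its 902 calls with a Bern value, 831 (92.1%) had the same sign in Bern and 330 were called there in the same direction, with 0 called in the opposite one. Over all 19164 genes 62.5% had the same sign. Besides AY036118, the genes not called in Bern were Cubn, Scn7a, Rnf207 and Serinc3 (edgeR adjusted p = 0.113, 0.344, 0.0739 and 0.119).

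Some called genes had larger differences in Bern, such as Ccl21a, Hoxa13 and Hcn4. Others had smaller ones there, such as Lyve1 (log2 difference 2.62 in Bern and 4.83 in Crick), Hoxd13 (4.94 and 7.1) and Cubn (-1.52 and -3.3). Ccl21a was at 127 to 280 CPM in the Bern colon libraries and at 0 in all 4 Bern SI libraries, and Hoxa13 was likewise at 21.3 to 32.8 CPM and at 0. Hcn4 was at 0 to 0.219 CPM in the Bern colon and 22.4 to 72.7 CPM in the Bern SI. Among mesothelial genes Muc16 was the 1 of 8 called in Bern, and the list's median was -1.13 there, while the lymphatic list had 5 of 6 called and the hind Hox genes 10 of 11. The difference between the facilities was itself tested, and edgeR called 0 of 19164 genes (0%), with 2015 at an unadjusted p under 0.05. On the same question limma-voom called 0 and DESeq2 325. A p that misses the threshold does not show that the facilities were alike.

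**Figure D5:**
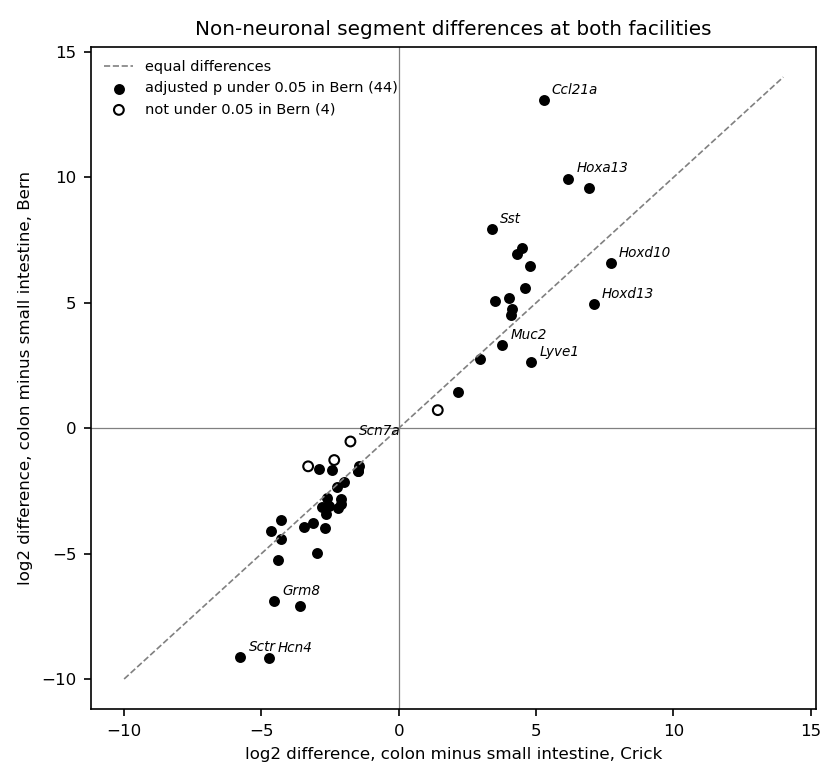
Log2 difference between colon and SI in Bern (y axis) against Crick (x axis) for 48 of the 49 genes called in Crick (AY036118 left out), with filled points for an adjusted p under 0.05 in Bern and a dashed line for equal differences. All 48 points lie in the lower left or upper right part, and 44 are filled.

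The neuronal nuclei of the same facility showed which segment differences were shared between the gates. Of 20664 genes tested in the 16 Crick libraries, 838 (4.06%) differed between colon and SI in neuronal nuclei, 0.682% higher and 3.37% lower in the colon. Of the 49 genes 17 were called there in the same direction, among them Kcnip2, Frem1, Cemip, Rbm24, Grem1, Npnt, Abcc9 and Sst. The SI neuronal libraries were the highest of the Crick groups in markers of interstitial cells of Cajal. The part of such cells in these shared calls was not tested. Prox1 was the 1 called in the opposite direction: in neuronal nuclei it was at 0.698 to 2.22 CPM in the colon and 5.21 to 21.1 CPM in the SI (log2 difference -2.56, edgeR adjusted p = 0.00672). The difference between the gates was itself tested and passed for 527 genes (2.55%; 2.1% with a more positive difference in the non-neuronal nuclei and 0.45% with a more negative one), 19 of the 49 among them. The 49 were chosen on non-neuronal libraries that also enter this test, so their share cannot be set against that of all genes. The 19 included Prox1, Lyve1, Flt4, Mmrn1, Ccl21a, Hoxa10, Hoxd10 and Reln, with a more positive difference in the non-neuronal nuclei. The neuronal difference was negative for Prox1, Lyve1, Flt4 and Hoxa10 and positive for Mmrn1, Ccl21a, Hoxd10 and Reln, and only that of Prox1 was called. Sctr, Hcn4, Grm8, Dgkb and Tm6sf1 had a more negative difference in the non-neuronal nuclei. Grm8 was at 7.55 to 22.6 CPM in colon neuronal nuclei and 1.68 to 8.38 CPM in SI ones, a difference of 1.54 (edgeR adjusted p = 0.0589), against -4.55 in the non-neuronal nuclei.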

How the data were processed

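Nuclear RNA of 32 sorted samples was sequenced, 4 in each of 8 groups, from single-end 75 bp reads of libraries made with an amplifying kit that the labels do not describe as strand-marking. The values the authors deposited are RSEM-type expected counts for Ensembl genes, in a single table. Per the submitters' processing notes, RSEM 1.3.0, STAR 2.5.2, DESeq2 1.10.1 and GRCm38 were used, with no order given. The expected counts were rounded to whole numbers, and 51633 of 51912 identifiers got symbols and GRCm38 coordinates from GENCODE M21. CPM are on TMM-scaled library sizes of the 16 non-neuronal libraries, except for values of neuronal libraries and the check of the sort, which use the 16 Crick libraries.

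Fits used edgeR 4.0.16 in R 4.3.3 (filterByExpr on the groups, TMM, group means, quasi-likelihood test, Benjamini-Hochberg threshold 0.05), tested on simulated data. DESeq2 1.42.0, limma-voom (limma 3.58.1), other scalings and filters, single libraries left out, a replicate block and the 8 Crick libraries alone were alternatives. Named genes were, in each direction, the 12 largest called changes among genes reaching 5 CPM in the higher segment whose segments do not overlap, without predicted genes and markers of epithelium, blood or sex; up to 6 called members of each list; and tested Hox genes. A few list members are not reported here and were left out of the lists' counts. Other genes named, those called in the Crick-only fit among them, were picked after their values were seen. The gene lists and the comparison were chosen with earlier results of these data known. Totals of 4310395 to 8350887 counts per library put the floor of 3 counts at 0.359 to 0.696 CPM, so absence below that is not detectable in 1 library.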

Additional observations from a re-analysis of the deposited data

Results flagged for a closer look

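In groups of 4 libraries, a library was set apart where its gap to the next one as a share of the group's range exceeded Dixon's 95% critical value, which chance alone gives in about 1 of 20 groups; 24 of 276 gene and group pairs and 12 of the 45 lists' sums (90 group sums) were set apart. The libraries numbered 4 held many of these. In SI library 4, Sctr was at 40.9, Hoxd11 at 7.63, Ror1 at 36.8, Gpr20 at 120, Ano1 at 311 and Etv1 at 147 CPM, above the other 3, and so were the pan-neuronal sum at 199 CPM, the growth and trophic factor sum at 856 CPM and the sex-linked sum (mostly Xist) at 9222 CPM. In colon library 4 the same held for Hoxa5 at 36.0, Hoxb6 at 102 and Ano1 at 176 CPM, for the glial sum at 210 CPM and for the sex-linked sum at 6094 CPM.

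Among immune genes, Cd74 stood at 1426 CPM and H2-Aa at 685 CPM in colon library 3, where the class II sum was 2799 CPM and the B cell sum 1556 CPM, while the enteroendocrine and tuft sum was low at 122 CPM and Pdpn low at 5.63 CPM. SI library 1 was low for Cd74 at 42.1 CPM and for the class II sum at 100 CPM, and high for the microbial sensing sum at 163 CPM. SI library 2 was high for the mitochondrial sum at 39668 CPM, the skeletal muscle sum at 24.4 CPM, Ccdc187 at 248 CPM, Hoxc4 at 44.0 CPM and Col6a1 at 287 CPM. SI library 3 alone held AY036118, at 3195 CPM. Colon library 2 was high for Bnc1 at 18, Tie1 at 31.4 and Chrdl2 at 23.3 CPM and low for Htr4 at 3.00 CPM. Colon library 1 was high for Apob at 105, Sis at 49.9 and Evx2 at 7.25 CPM.

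The segment difference itself differed between the gates, by the edgeR test of that difference (log2, non-neuronal minus neuronal), for 41 of the genes described. Over all 20664 genes tested, 527 (2.55%) passed. Many of the genes described were chosen on non-neuronal libraries that also enter this test, so the count of 41 cannot be set against that share. Among hind Hox genes it was 8.84 for Hoxa10, 6.64 for Hoxd10, 4.64 for Hoxa9, 4.59 for Hoxd9 and 9.43 for Hoxd12, and those values depend on the few counts in 1 or more groups. Among vessel genes it was 6.08 for Prox1, 5.01 for Flt4, 6.64 for Lyve1, 4.00 for Mmrn1, 4.55 for Ccl21a, 3.19 for Reln, 3.62 for Kdr, 8.38 for Cldn5 and 4.66 for Emcn. Negative values were found for Grm8 (-6.08), Sctr (-4.60), Hcn4 (-3.44), Dgkb (-3.42), Gm35755 (-3.40), Ccdc187 (-2.76), Tm6sf1 (-2.56), Col14a1 (-2.43), Frem1 (-2.35) and Smad9 (-1.99).

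Positive values of genes that were lower in the colon in neuronal nuclei were found for Osr1 (5.94), Kit (6.43), Ano1 (5.81), Hand1 (3.64), Meis2 (3.99), Gli3 (2.70) and Rbpms (2.16). Neuronal genes also had positive values, with Nos1 at 2.99, Chat at 2.86 and Snap25 at 1.50. The remaining ones were Cd74 (3.92), H2-Aa (4.85), Spdef (5.34), Aqp4 (7.65), Htr4 (3.69), Gm10048 (2.06) and Gm48885 (2.74).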

How the results depend on the processing

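The count of 49 called genes moved with the tool and with the libraries that set the spread. It was 196 with DESeq2, 108 with limma-voom, 262 with no filter on low counts, 11 without SI library 2 and colon library 3, and 22 to 40 when each of the 8 libraries was left out in turn. Alternatives chosen after seeing the data gave 16 without both libraries numbered 4 and 1146 with the 16 Crick libraries in 1 fit. The Crick-only fit gave 906, or 403 with the replicate block, 195 without SI library 2 and colon library 3, 945 without both numbered 4, 1916 with DESeq2 and 588 with limma-voom. AY036118 ranged from -14.83 to 1.37 when single libraries were left out and turned to 1.37 without SI library 3, and no other gene of the 49 changed sign under any of these settings. DESeq2 called all 49 and limma-voom 39 of them; RLE scaling called 43 of them and total count scaling, which moved the median of all genes to 0.22, 34. The Bern count of 1939 was 3431 with DESeq2, 2962 with no filter, 849 with the replicate block and 1205 without SI library 2 and colon library 3. The facility difference was 0 by edgeR, 325 by DESeq2 and 229 with no filter. The difference between the gates, 527 genes, was 1101 with DESeq2, 231 with limma-voom, 947 with no filter, 348 without SI library 2 and colon library 3 and 325 to 634 over single libraries left out. The 838 genes of neuronal nuclei were 1342 with DESeq2 and 512 with limma-voom. The labels do not say whether a number marks a shared mouse, and the deviations did not pair the samples (same-numbered colon and SI libraries of Crick deviated with correlations of 0.13, -0.15, 0.06 and 0, and 1 of the 8 correlated best with its own number), although both libraries numbered 4 share high Xist and few genes detected. With the replicate block the main fit called 33 genes, 26 of the 49 among them. The 23 not called under it had edgeR adjusted p-values of 0.0525 to 0.157, and included Hoxa10, Hoxa13, Mmrn1, Reln, Sst, Gfpt1, Serinc3, Grm8, Kcnip2, Grem1, Abcc9, Npnt and Scn7a. The cause of these changes was not tested. A gene at 0 in a group is limited by depth, at 3 counts over the group.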
